A study of Mus musculus with 2 samples.

Results

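Gata1 peaks at the ends of protein-coding genes are described here: peaks whose midpoint lay within 1 kb of the start or the end of a protein-coding gene body. Of 4133 nuclear peaks, 833 met this rule (20.2%, 95% Wilson interval 19.0 to 21.4%), and 3300 did not. The 833 peaks lay at the ends of 923 of 21779 protein-coding genes (4.24%). Position alone chose them, so their closeness to gene ends is not a finding. At the limit of 1 kb, the last peak counted lay 1000 bp from Ndrg3 and the next peaks out lay 1002 bp from Tmem86b and Scaf8, with 44 peaks between 900 and 1000 bp and 44 between 1000 and 1100 bp.

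The peaks came from chromatin immunoprecipitation and sequencing (ChIP-seq) of embryoid bodies, clusters in which mouse embryonic stem cells had been led towards blood for 5 days. Sorted cells carried a GFP reporter of Runx1 and an mCherry reporter of Gata1, and the series calls them primitive erythroid. The series has 1 Gata1 library, pooled from several sorts, and 1 input chromatin library of the same cells, of which no processed file was analysed here; it is titled input, but its antibody label names a rabbit IgG. Expression was not measured, so the identity of the sorted cells could not be checked against marker RNAs. Each peak is a 400 bp interval with no height or p-value, the read depth is unknown, and there was no replicate, so intervals and tests below cover counts of peaks or genes only. Peaks and genes were treated as independent in every test, although neighbouring peaks and genes are not.

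Gata1 is a zinc finger protein that binds the sequence GATA and is required for red cell and platelet development. It activates genes of haem synthesis, globin and the red cell membrane, and it works with the cofactor FOG-1 and with a complex of Tal1, Lmo2 and Ldb1 that reads an E-box beside the GATA site. Much Gata1 binding in red cells is known to fall in introns and between genes. Peaks at gene ends include those at promoters, and also peaks at the far ends of genes.

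Of the promoter sequences under these peaks, 63 of 215 held the GATA motif AGATAA. Sequences were RefSeq promoters of build GRCm38.p6, from 250 bases before to 50 bases after each listed promoter start, and 764 of the 923 genes had one. A listed promoter start can differ from the start of the gene body, from which distances to gene ends were taken. At Gp9 and Rpl18 the midpoint lay 62 and 28 bp before the gene body start, yet the peak covered 0 bases of the promoter. For 215 genes a peak covered at least 200 of the 300 bases. The first stretches come from genes of the lists below whose covered promoter held the 6-letter motif AGATAA on either strand, and capitals mark it (TTATCT is its other strand). Each is read 5′ to 3′ along the gene and stops before the listed promoter start.
Atg4d (chr9:21265148-21265213, plus strand): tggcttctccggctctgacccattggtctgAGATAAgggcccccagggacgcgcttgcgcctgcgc
Trim10 (chr17:36869381-36869446, plus strand): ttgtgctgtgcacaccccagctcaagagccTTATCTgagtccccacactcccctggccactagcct
Epor (chr9:21963595-21963660, minus strand): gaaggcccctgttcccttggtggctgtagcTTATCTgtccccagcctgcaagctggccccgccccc
The motif lay 7 bp from the peak midpoint at Epor, the erythropoietin receptor gene, 16 bp at Atg4d, a protease of autophagosome formation, and 50 bp at Trim10, a RING finger gene of the erythroid lineage.

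A longer arrangement joins a short E-box site to the motif: CTG, then 7, 8 or 9 bases of any kind, then AGATAA, searched on both strands. It was present in 8 of 215 promoters under a peak (3.72%) and in 108 of 16728 promoters of genes with no end peak (0.646%). Every such match also counts as an AGATAA match. The 6 that lay wholly before the listed promoter start are shown with CTG and AGATAA, or their other strands CAG and TTATCT, in capitals.
Kel (chr6:41704361-41704407, minus strand): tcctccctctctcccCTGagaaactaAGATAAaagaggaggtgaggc
Icam4 (chr9:21029374-21029420, plus strand): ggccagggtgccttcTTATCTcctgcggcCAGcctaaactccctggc
Art4 (chr6:136857684-136857729, minus strand): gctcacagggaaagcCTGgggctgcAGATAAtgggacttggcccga
Lbr (chr1:181842515-181842561, minus strand): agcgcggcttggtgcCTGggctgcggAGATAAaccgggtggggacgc
Btf3l4 (chr4:108834308-108834353, minus strand): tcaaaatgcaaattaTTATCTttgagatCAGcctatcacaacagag
1300017J02Rik (chr9:103288360-103288405, minus strand): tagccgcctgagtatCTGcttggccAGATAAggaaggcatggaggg
The GATA part lay 30 bp from the midpoint at Kel, 23 bp at Icam4, 59 bp at Art4, 5 bp at Lbr, 47 bp at Btf3l4 and 1 bp at 1300017J02Rik. Kel, Icam4 and Art4 encode the carriers of the Kell, Landsteiner-Wiener and Dombrock blood group antigens, and Lbr encodes the lamin B receptor of the nuclear membrane. The spacing was 7 bases at Art4, Btf3l4 and 1300017J02Rik and 8 bases at Kel, Icam4 and Lbr. These genes were singled out after their sequences were seen.

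Other promoters under a peak held the 4-letter core GATA without the longer motif. Of these, 4 are shown because they include the embryonic globin gene, with the cores (GATA, or TATC on the other strand) in capitals.
Hba-x (chr11:32276407-32276470, plus strand): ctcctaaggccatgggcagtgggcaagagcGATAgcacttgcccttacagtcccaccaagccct
Gp1ba (chr11:70638989-70639052, plus strand): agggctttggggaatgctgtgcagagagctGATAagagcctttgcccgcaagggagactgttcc
Gadd45a (chr6:67037408-67037465, minus strand): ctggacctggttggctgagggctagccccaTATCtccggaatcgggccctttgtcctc
Rps19 (chr7:24884413-24884476, plus strand): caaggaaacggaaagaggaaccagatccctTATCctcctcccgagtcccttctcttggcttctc
The core nearest the midpoint lay 16 bp from it at Hba-x, the embryonic zeta-globin gene, 15 bp at Gp1ba, a platelet receptor subunit gene, 0 bp at Gadd45a, a growth arrest gene, and 93 bp at Rps19, a ribosomal protein gene mutated in Diamond-Blackfan anaemia. At Gp1ba the letters read GATAAG, the motif shifted by 1 base, and at Rps19 they read CTTATC, its other strand.

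In promoters at Tal1 and Epb42 the AGATAA match lay outside the peak.
Tal1 (chr4:115056191-115056256, plus strand): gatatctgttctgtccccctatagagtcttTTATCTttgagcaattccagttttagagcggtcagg
Epb42 (chr2:121037068-121037127, minus strand): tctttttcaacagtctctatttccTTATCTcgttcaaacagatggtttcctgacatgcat
The distance to the midpoint was 444 bp at Tal1, a master blood transcription factor gene, and 296 bp at Epb42, which encodes the membrane skeleton protein 4.2. Both midpoints lay inside the gene, and the sequence beyond 50 bases into the gene was not used here.

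Counted over all promoters, AGATAA matches gathered within 50 bp of the midpoints. Promoter bases within 500 bp of a midpoint were available for 452 peaks. In the innermost 50 bp there were 54 matches in 19154 bases, or 2.82 per kb (95% exact Poisson interval 2.12 to 3.68). From 50 to 100 bp there were 14 matches (0.771 per kb, 0.421 to 1.29), and from 200 to 500 bp there were 13 in 57252 bases (0.227 per kb, 0.121 to 0.388). A control with the same letters in another order, AATAGA, was flat, at 0.209 per kb in the innermost 50 bp and 0.210 per kb from 200 to 500 bp. The GC box GGGCGG, read by Sp and Klf factors, had 3.73 matches per kb within 100 bp (3.13 to 4.40) and 4.91 from 200 to 500 bp (4.35 to 5.52). The Klf1 motif CCACACCC had 7 matches in each of these ranges (0.188 and 0.122 per kb), with overlapping intervals (0.0754 to 0.387 and 0.0492 to 0.252).

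**Figure D1:**
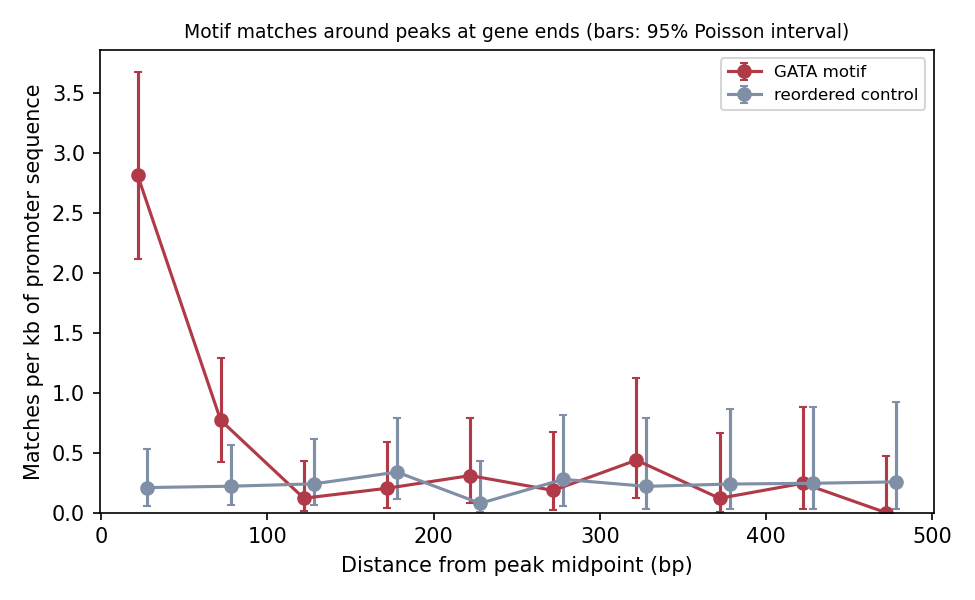
Matches of the GATA motif and of a control with the same letters reordered, per kb of promoter sequence, by distance from the midpoint of a gene-end peak in steps of 50 bp; bars are 95% exact Poisson intervals. The GATA motif is at 2.82 per kb in the innermost 50 bp and 0.771 in the next, and the control is at 0.209 and 0.220 there.

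AGATAA was present in 63 of 215 promoters under a peak (29.3%, 95% Wilson interval 23.6 to 35.7%). Among the 549 promoters of genes whose end peak covered fewer than 200 promoter bases it was present in 34 (6.19%, 4.47 to 8.53%), an odds ratio of 6.28 (two-sided Fisher's exact test, adjusted p = 1.3e-15 over 6 tests). With the whole window required to lie in the peak the odds ratio was 2.75 (21 of 82 against 76 of 682, Fisher's exact test, adjusted p = 0.0013). Of all 17492 promoters of protein-coding genes, 9.99% held it. The 4-letter core was found in 175 of 215 (81.4%) and in 237 of 549 (43.2%), beside 54.0% of all promoters, so 40 promoters under a peak had no GATA core in the 300 bases. The reordered control was found in 6.05% of promoters under a peak, 7.10% of the others with an end peak and 9.59% of all promoters.

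Promoters with an end peak were rich in CpG whether or not the peak covered at least 200 of their bases. The median ratio of observed to expected CpG was 0.791 under a peak and 0.775 where the peak covered fewer than 200 bases or none. It was 0.559 for genes with no end peak. The GC box was present in 67.4% of promoters under a peak, 65.8% of the others with an end peak and 45.4% of those with none. CCGGAA, a motif of Ets factors, was present in 35.3%, 28.2% and 18.6%, and the TATA box TATAAA in 4.19%, 8.01% and 13.6%. The GATA difference was present on each side of the median CpG ratio of all promoters. At or above it AGATAA was in 43 of 178 promoters under a peak and 18 of 413 others with an end peak (odds ratio 6.99, Fisher's exact test, adjusted p = 1.9e-11), and below it in 20 of 37 and 16 of 136 (odds ratio 8.82, adjusted p = 7e-07). The E-boxes CAGATG and CAGCTG were in 8.37% and 11.2% of promoters under a peak. They were in 10.7% and 13.8% of the others with an end peak, and in 14.9% and 15.1% of all promoters. The motif TGACTCA of NF-E2 and AP-1 was in 2.79%, 2.91% and 4.56% of these groups, in the same order. These shares were not tested.

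Peaks at gene ends were mostly at gene starts. The strand was known for 17492 genes. Of the peaks within reach of 1 kind of end alone, 565 were at a start and 87 at the far end (86.7% at starts, 95% Wilson interval 83.8 to 89.1%, two-sided exact binomial test against equal shares, adjusted p = 6.1e-86). A further 137 peaks lay at genes of unknown strand alone, and 44 reached ends of more than 1 kind. Peaks whose nearest end was a start had a median distance of 324.5 bp from it (quartiles 108.75 and 599.75 bp). Those nearest a far end had a median of 538 bp (quartiles 292.75 and 768.75 bp). Within 100 bp of the end lay 138 of 586 peaks at starts (23.5%) and 4 of 96 at far ends (4.17%).

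The profile around starts was not symmetric. Outside the gene the count per 100 bp fell from 73 next to the start to 8 at 900 to 1000 bp. Inside the gene it was 65 in the first 100 bp, 20 in the next, 39 from 200 to 300 bp, 13 from 300 to 400 bp and 43 from 500 to 600 bp. Over all members, 427 midpoints lay inside the gene of the nearest end and 406 outside it (51.3% inside, two-sided exact binomial test, adjusted p = 0.67). This share depended on the window: with ends drawn at 0.5 kb it was 43.0% (exact binomial test, adjusted p = 0.0023), and at 2.5 kb it was 54.6% (adjusted p = 0.0017). For 30 of the 923 genes the body was shorter than 2 kb, so that the windows at their ends overlap inside the gene.

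**Figure D2:**
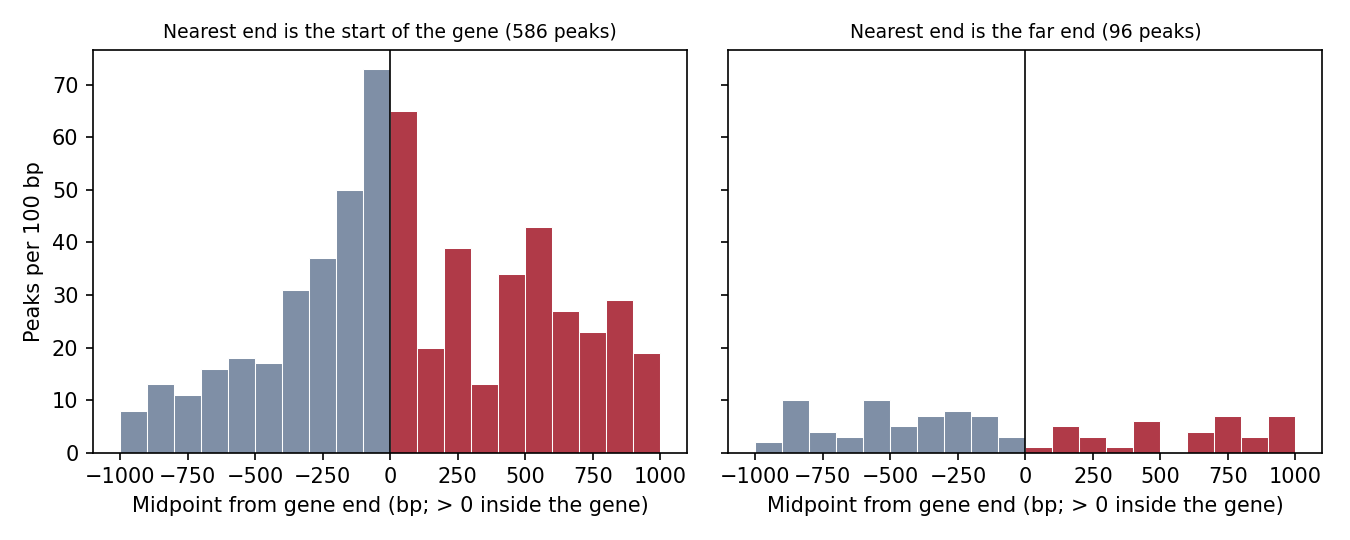
Number of peaks per 100 bp by distance of the midpoint from the nearest gene end, with positive values inside the gene; the left panel has the 586 peaks nearest a gene start and the right panel the 96 nearest a far end. Peaks at starts crowd within 100 bp on either side (73 outside, 65 inside), and those at far ends are spread over the window.

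An end peak was found for a minority of the genes of each list described here. In lists of genes chosen with earlier results of these data known, an end peak was found for 8 of 26 genes of the red cell membrane and its skeleton, 6 of 34 for haem and iron, 13 of 38 blood transcription factors, 6 of 29 cytosolic ribosomal proteins and 4 of 22 megakaryocyte markers, beside 4.24% of all protein-coding genes. No set test was made, and each list's count is a description. With ends drawn at 0.5 kb the counts were 7 of 38 blood transcription factors and 3 of 34 haem and iron genes, beside 2.69% of all genes, and at 2.5 kb 13 of 34 haem and iron genes, beside 6.61%.

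Among the membrane and skeleton genes (30.8%, 95% Wilson interval 16.5 to 49.99%), the nearest peak sat at the start in 5 of the 6 of known strand. At Kel the midpoint lay 14 bp before the start, at chr6:41704149-41704548, and at Icam4 17 bp before it, at chr9:21029216-21029615. Icam4 had another peak at its far end, 263 bp beyond it. At Epb42 the midpoint was 73 bp inside the gene. At Add1, encoding alpha-adducin, the midpoint was 335 bp before the start, and at Sptb, encoding red cell beta-spectrin, 448 bp inside. Tpm1, a tropomyosin gene, had its peak 145 bp inside the far end. Kel, Epb42 and Add1 had no other peak within 10 kb, and Sptb had 4 peaks in all.

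In the haem list, 6 of 34 genes had an end peak (17.6%, 8.35 to 33.5%), some of them enzymes of haem synthesis, and the other genes of the list had none. Urod, encoding a cytosolic enzyme of haem synthesis, had its midpoint 642 bp inside the gene. Cpox, the next enzyme, had its midpoint 6 bp inside the start, at chr16:58670015-58670414, with 4 GATA cores in the promoter. Ppox, which follows it, had 2 end peaks, 178 and 688 bp inside its start, the nearer of them shared with Usp21. Fech, encoding ferrochelatase, which inserts the iron, had its midpoint 88 bp outside the gene at its higher-coordinate end, on chromosome 18. Isca1, of iron-sulphur cluster assembly, had a peak 587 bp before its start. Of the 11 genes of the globin list, Hba-x was the 1 with an end peak (9.09%, 1.62 to 37.7%). This interval takes in the 4.24% of all protein-coding genes. The Hba-x midpoint lay 177 bp before the start, at chr11:32276224-32276623.

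Of the blood transcription factors (34.2%, 21.2 to 50.1%), the 10 with the nearest peaks were these. Tcf3, encoding the E proteins that pair with Tal1, had its midpoint 22 bp before the start. Nfe2, encoding the p45 subunit of NF-E2, had it 159 bp outside the gene. Gata2, Tal1 and Lyl1, factors of blood stem and progenitor cells, had peaks 182, 242 and 243 bp inside the start, at chr6:88193874-88194273, chr4:115056469-115056868 and chr8:84701467-84701866. Cbfb, encoding the partner of Runx1, had its peak 517 bp inside. The peaks at Nfe2l2 (an antioxidant response factor), Klf1 (the erythroid Krüppel-like factor) and Foxo3 lay before the start, at 433, 704 and 778 bp. Zbtb7a, a repressor of fetal globin, differed in having its peak beyond the far end, by 293 bp. The other 3 members were Hhex, Gfi1 and Zfpm1, with midpoints 936, 960 and 986 bp inside the start, and Zfpm1, encoding FOG-1, had 8 peaks within 10 kb in all.

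**Figure D3:**
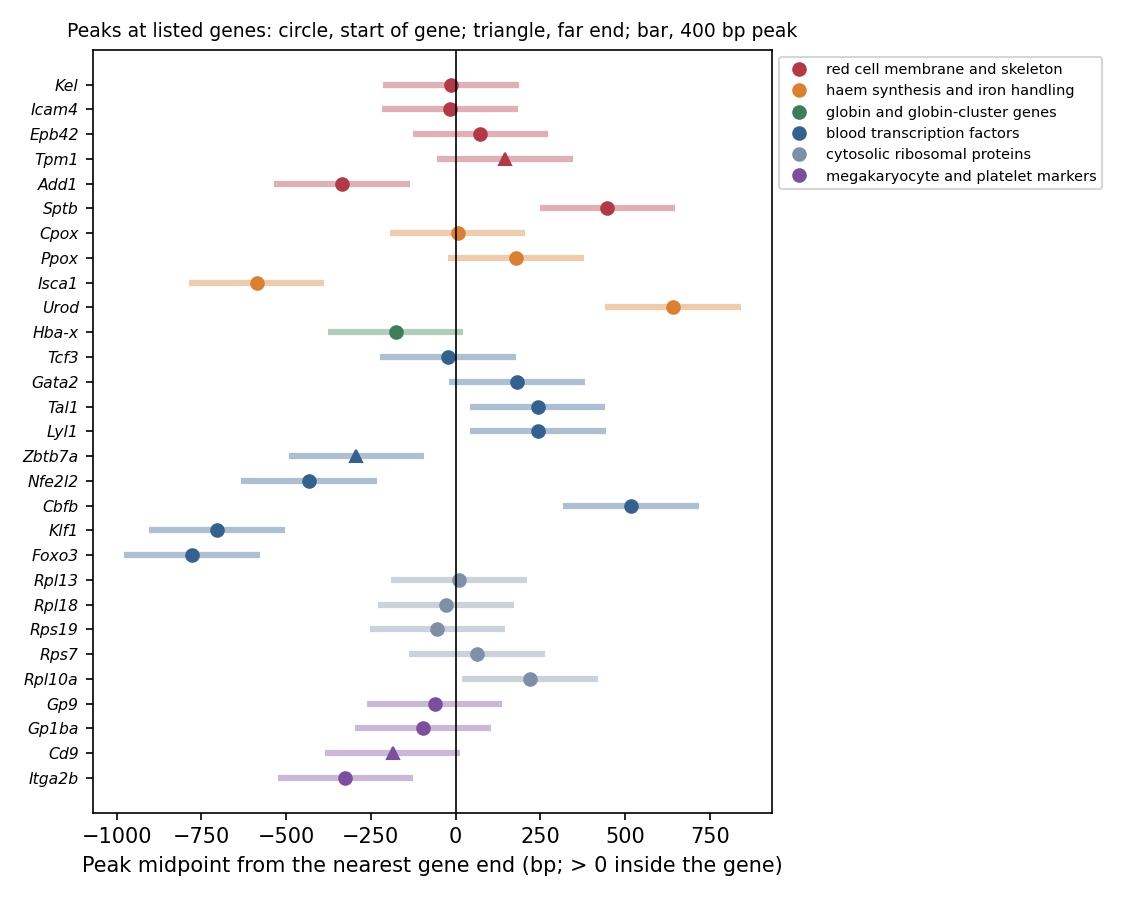
Position of the peak nearest a gene end for the genes of known strand among those named by the rule from 6 lists (at most 10 a list), in bp from that end with positive values inside the gene; circles are peaks at starts, triangles peaks at far ends, and bars the 400 bp interval. The listed ribosomal protein genes lie within 220 bp of the start, and the blood transcription factors drawn range from 778 bp before it to 517 bp inside.

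The listed ribosomal protein genes with an end peak (20.7%, 9.85 to 38.4%) had midpoints at these distances from the end: Rpl13 at 10 bp, Rpl18 at 28 bp, Rpl8 at 32 bp, Rps19 at 54 bp, Rps7 at 63 bp and Rpl10a at 220 bp. The list holds part of the family. Among all genes with a symbol that begins with Rpl, 6 of 56 had an end peak (10.7%), and with Rps 4 of 45 (8.89%). These counts go by symbol alone, so they take in any gene so named, whether or not it encodes a ribosomal protein. Those not on the list were Rps27 at 41 bp, Rpl10 at 57 bp, Rpl21 at 635 bp and Rps27a at 875 bp. The peaks at Rps27 and Rps27a were shared with Rab13 and Clhc1, whose ends lay nearer to the midpoint. None of the promoters of Rpl13, Rpl18, Rps19, Rps7 and Rpl10a held AGATAA, and each held 1 GATA core. At Rps19 that core is part of the shifted motif GATAAG, in the stretch printed above. A peak covered 300 of the promoter bases at Rps19, 239 at Rpl13, 187 at Rps7, 123 at Rpl10a and 0 at Rpl18. At Rpl18 the sequence read was therefore not that under the peak, and at Rps7 and Rpl10a it was so in part.

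Megakaryocyte and platelet genes with an end peak (18.2%, 7.31 to 38.5%) were Gp9 and Gp1ba, both subunits of the von Willebrand factor receptor, Itga2b, encoding integrin alpha IIb, and Cd9. The midpoints lay 62, 96 and 325 bp before the start at the first 3 and 186 bp beyond the far end at Cd9. Growth factor signalling genes with an end peak were Epor, Id1 and Smad5 (3 of 25, 12.0%, 4.17 to 29.96%), and those of the cell cycle were Gadd45a, Ccnd3 and Btg2 (3 of 25). Ccnd3, encoding cyclin D3, had its peak 452 bp before the start and 5 peaks within 10 kb in all. Autophagy genes were Atg4d, Gabarap and Pink1 (3 of 28, 10.7%, 3.71 to 27.2%), at 40 and 266 bp before the start and 861 bp inside. The ubiquitin list had Trim10 and Ube2l6 (2 of 26, 7.69%, 2.14 to 24.1%), with midpoints 32 and 72 bp before the start. The intervals of the growth factor, cell cycle, autophagy and ubiquitin lists take in the 4.24% of all protein-coding genes.

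The lists not yet named were near the share of all genes or below it. One gene each was found among corepressor and chromatin genes (Dnmt3b, 1 of 27), glycolysis genes (Pgk1, 1 of 21), antioxidant genes (Gclc, 1 of 23) and endothelial markers (Plvap, 1 of 22). The count was 0 of 24 myeloid and mast cell markers, which allows a share of up to 12.5% by the limit of 3 counts (95% Wilson upper limit 13.8%). It was also 0 of 26 cardiac and early mesoderm markers (11.5% and 12.9%) and 0 of 22 pluripotency markers (13.6% and 14.9%). These limits take in the share of all genes. Among 1109 olfactory receptor genes, 1 had an end peak (0.0902%, 0.0159 to 0.509%).

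**Figure D4:**
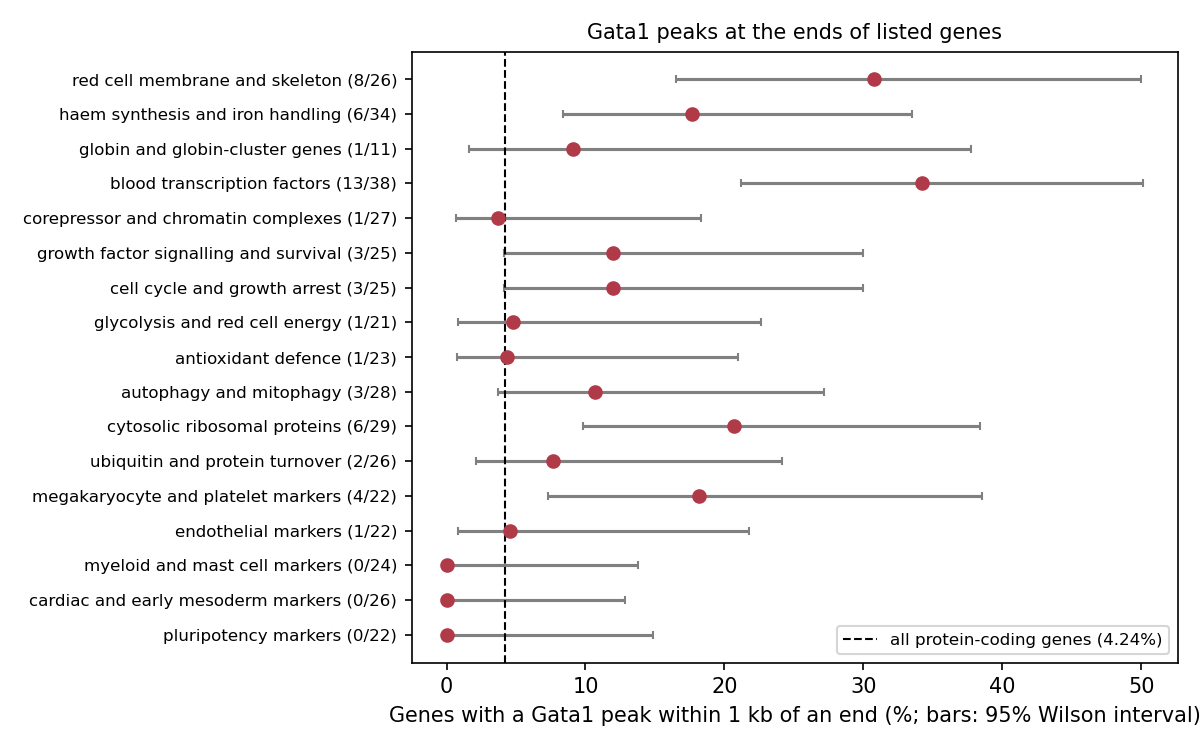
Share of genes of each list with a Gata1 peak within 1 kb of an end, with 95% Wilson intervals and counts; the dashed line is the share of all protein-coding genes (4.24%). Blood transcription factors (34.2%) and membrane genes (30.8%) have the highest shares, and 3 marker lists are at 0.

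Most genes with an end peak had 1 such peak. Of 923 genes, 891 had 1, 29 had 2, 2 had 3 and 1 had 4. For 737 genes (79.8%) the end peak or peaks were the sole peaks from 10 kb below the gene to 10 kb above it. Gadd45a, which lies at chr6:67035096-67037407 on the minus strand, had the most. Its 4 midpoints lay 26 bp before the start, 785 bp inside the start, 999 bp inside the far end and 340 bp beyond the far end. The peaks lay at both ends of this short gene but did not cover the whole of it. Rab5a, encoding a small GTPase of early endosomes, had 3 at its start, 874 and 347 bp before it and 679 bp inside. Mgarp, encoding a mitochondrial protein, had 2 at its start, 258 bp before it and 541 bp inside, and 1 at the far end, 645 bp inside. Epor had 2, at 44 bp before the start and 965 bp inside. The other 6 genes named by the rule were Arv1, Asic4, Bad, Btaf1, Cct6a and Chmp6, the first by symbol among the 29 genes tied at 2. Positions alone cannot tell separate sites from 1 region called more than once. Of the peaks closest to an end, 11 had midpoints 1 to 4 bp from it, and 10 of these 11 were at starts, among them those of U2af1, a splicing factor gene, Irf9, an interferon response factor gene, and Jun.

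A peak served 2 genes in 126 of 833 cases and 1 gene in 707. In 73 of the 126 cases it lay at the starts of both genes, and 72 of these pairs ran on opposite strands, as divergent neighbours. The divergent pairs included Aida with Brox, and R3hdm1 with Zranb3. Among 655 genes with a peak at the start, 147 (22.4%) had a divergent protein-coding start within 1 kb, beside 10.3% of all genes of known strand. A peak between such starts counts for both genes, which raises this share, and it was not tested. In 22 cases the peak lay at the start of 1 gene and the far end of another, as at Usf1 and Arhgap30, and in 4 at far ends of both. Of all 833 peaks, 107 (12.8%) were also within 1 kb of the end of a noncoding gene.

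The 87 peaks at far ends alone were by definition not within 1 kb of the outer start of a protein-coding gene of known strand. In the promoter table, which gave the strands and does not list every gene, 3 of them lay within 1 kb of a start. This low count was largely fixed by the choice of peaks and is not a finding. Their median distance to the nearest listed start was 7.66 kb. Examples by distance from the far end were Slc27a3 (1 bp beyond it, at chr3:90385030-90385429), Mob3a (55 bp), Lemd1 (113 bp), Bad (123 bp), Ypel3 (128 bp inside) and Wdhd1 (144 bp). Bad, a gene of the cell death pathway, and Plcb3 were served by a row of close peaks, with midpoints 123 and 951 bp beyond the far end of Bad and 193 bp beyond the far end of Plcb3.

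Gene-end peaks were as often near another peak as the rest were, within the error of the counts. Another midpoint lay within 10 kb for 136 of 833 (16.3%, 14.0 to 19.0%) and for 554 of 3300 other peaks (16.8%, 15.6 to 18.1%), an odds ratio of 0.967 (two-sided Fisher's exact test, adjusted p = 0.79). The median distance to the next peak was 69.3 and 67.5 kb. Seen by gene, however, a peak at an end went with a peak nearby: 97 of 923 genes with an end peak had a further midpoint 1 to 10 kb outside the gene (10.5%, 8.69 to 12.7%), beside 1269 of 20856 other protein-coding genes (6.08%, 5.77 to 6.42%), an odds ratio of 1.81 (Fisher's exact test, adjusted p = 9.8e-07). This comparison was chosen after the positions were seen. The part of gene density in it was not tested.

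By chromosome, end peaks were found for 3.11% of genes on chromosome 7 to 6.24% on chromosome 11 among the autosomes. On chromosome 11 the count was 100 of 1602 genes (95% Wilson interval 5.16 to 7.53%). On the X it was 11 of 963 (1.14%, 0.639 to 2.03%), beside 912 of 20560 autosomal genes (4.44%). The X peaks were not shifted towards or away from gene ends beyond counting error: 10 of 42 X peaks and 823 of 4088 autosomal peaks were at gene ends (23.8%, 13.5 to 38.5%, and 20.1%, 18.9 to 21.4%, odds ratio 1.24, two-sided Fisher's exact test, adjusted p = 0.67).

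**Figure D5:**
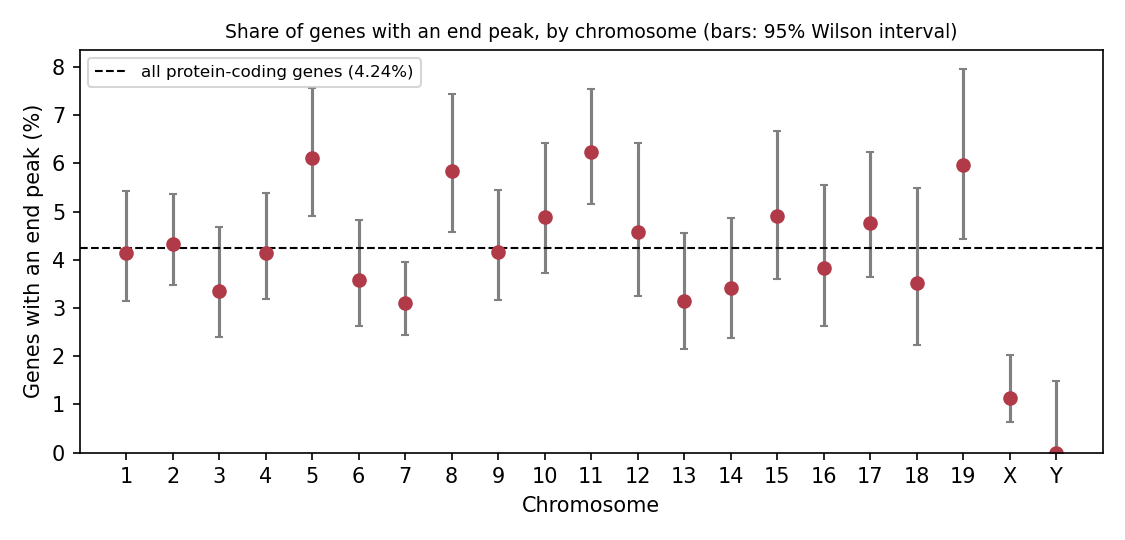
Share of protein-coding genes with an end peak on each chromosome, with 95% Wilson intervals; the dashed line is the share over all chromosomes (4.24%). Chromosome 11 is at 6.24% and the X at 1.14%.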

How the data were processed

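Bowtie2 2.0.6, MACS2 2.0.10 and the build mm10 are named in the submitters' processing notes; their settings, the peak threshold and any use of the control were not given in the sources used here. The authors deposited 4135 peak intervals, 2 of them mitochondrial and left out. Positions are printed 1-based. Genes came from RefSeq GRCm38.p6 (mm10), leaving out autosome and X entries that start below 3 Mb. Strand came from the RefSeq promoter table, which has 17492 of the 21779 genes and none of the 511 on chromosome 18. Each gene gave 1 promoter, the most covered or else that nearest its outer start. p-values of 6 tests were adjusted together (Benjamini-Hochberg, threshold 0.05). The 17 lists held 429 gene names, 427 of which matched. Named were up to 10 genes per list with the nearest peaks, the 10 genes with the most end peaks, the 5 peaks shared by the most genes and the 10 closest peaks, with ties (126 peaks at 2 genes, 29 genes at 2 peaks) broken by position or symbol; other names were chosen after their values were seen, and some genes under the rule are not reported here. The members and lists were chosen with earlier results of these data known. Peak assignment and motif search were tested on simulated data. Python 3.11.15, numpy 2.4.6, scipy 1.17.1, pandas 2.3.3 and matplotlib 3.10.9 were used.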

Additional observations from a re-analysis of the deposited data

How the results depend on the processing

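The number of peaks at gene ends was 519 with ends drawn at 0.5 kb and 1265 at 2.5 kb, and the number of genes 586 and 1440, as a window of another width must give; the count over all lists was 85 genes at 2.5 kb, against 53. The share of midpoints inside the gene reversed to 43.0% at 0.5 kb and passed the threshold at 2.5 kb (54.6%); the cause was not tested. The odds ratio for a neighbouring peak, which did not pass the threshold in any setting, reversed to 1.04 with ends at 2.5 kb and to 1.08 with neighbours within 5 kb. The shares at gene starts, the GATA difference and the further peaks outside genes held their direction and remained past the threshold in the alternatives run for each, with odds ratios of 2.75 to 8.82 for GATA. Settings by CpG ratio, far ends without a nearby start and all those of the further peaks were chosen after seeing the data. Without depth or peak heights, a gene without a peak is one where none was called. No paired analysis was possible because 1 library has peaks.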

Other observations

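Groups of genes formed after the peak positions were seen, and listed in full from general knowledge, gave further names; none was tested. Of 21 blood group and further red cell membrane genes, 8 had an end peak (38.1%), beside 4.24% of all protein-coding genes. Mfsd2b, which exports sphingosine-1-phosphate from red cells, had its midpoint 30 bp before the start, Art4 160 bp and the lactate transporter gene Slc16a1 241 bp before it. Stom (stomatin), Slc43a1 and the glycine transporter gene Slc6a9 had theirs 465, 568 and 732 bp inside the start, and Kcnn4, encoding the Gardos potassium channel, 951 bp inside the far end. Of 22 iron-sulphur cluster assembly genes, 6 had one (27.3%), among them Isca2, Nubp2 and Ciapin1, 148 and 272 bp before the start and 528 bp inside it. Each of the peaks at Isca2, Nubp2 and Ciapin1 also served a neighbour (Npc2, Spsb3 and Coq9).

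Of 29 genes of protein folding and the integrated stress response, 10 had an end peak (34.5%), beside 4.24% of all protein-coding genes. Trib3, Herpud1 and Ppp1r15a, which are induced by stress in many cells, had midpoints 8 bp before, 39 bp inside and 204 bp before the start, and Ppp1r15b, which like Ppp1r15a directs removal of phosphate from eIF2-alpha, 233 bp outside the gene. Of 9 chaperonin subunit genes, 4 had one (44.4%, 18.9 to 73.3%): Cct5, Cct6a, Cct2 and Cct6b, with 214 bp as the smallest distance. The peaks at Cct5 and Cct6b also served a neighbour (Atpsckmt and Zfp830). Both peaks at Cct6a lay nearer to an end of a neighbour (Psph and Sumf2). Of 15 inherited anaemia genes, 4 had one (26.7%): Sbds, Rps19, Cdan1 and Nt5c3. Cdan1, mutated in congenital dyserythropoietic anaemia, had its midpoint 190 bp before the start, and Nt5c3, encoding the red cell pyrimidine 5′-nucleotidase, 492 bp inside it. Of 17 immediate early genes, Jun, Egr1 and Btg2 had an end peak. The peaks at Ppp1r15a, Sbds and Nt5c3 also served a neighbour (Plekha4, Tyw1 and Vmn1r4).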
